A study of Mus musculus with 18 samples.

Results

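The gene segments of the alpha beta T cell receptor were followed across donor T cells of 4 groups. Members were the rows of the count table whose symbol names a V, D, J or C segment of the receptor alpha (Tra) or beta (Trb) chain, including V segments with a combined alpha and delta name. Of 46073 genes in the table, 242 rows met this rule. The 157 with at least 10 counts over 12 libraries were kept: 76 alpha V, 42 alpha J, 1 alpha C, 25 beta V, 11 beta J and 2 beta C segments. The other 85 had fewer counts, among them Trbd1 and Trbd2, which had 0 counts in every library. A count of 0 allows up to 3 counts per library, or 0.0305 to 0.0704 counts per 1000000 (CPM), as far as counting error goes.

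Mice with intact Wapl (WT) or without Wapl (KO), whose product releases cohesin from chromosomes, gave splenic T cells to irradiated recipients, and total RNA of the donor cells was sequenced on day 7. The 4 groups had 3 libraries each. Allogeneic KO and allogeneic WT donor cells came from CByJ.SJL(B6)-Ptprca/J recipients (H-2d, called BALB/c in another label) given 8 Gy and 1000000 T cells. Syngeneic KO and syngeneic WT donor cells came from B6.SJL-Ptprca Pepcb/BoyJ recipients (H-2b) given 9.5 Gy and 8500000 T cells. All recipients also had 5000000 T cell depleted marrow cells. The labels name female C57BL/6 (CD45.2) donors and female recipients, all 8 to 12 weeks old. They give neither the Cre line, the deleted exons nor the sex of KO donors. The 2 kinds of transplant therefore differed in recipient strain, radiation dose and T cell dose at once, and these cannot be told apart. Each library pooled 2 to 4 mice, and flow sorting kept live donor cells with surface CD3 and CD45.2. The p values measure the spread between these pooled libraries. The cell type label of syngeneic KO libraries gives BALB/c, the strain of the other transplant, and the transplant type was used to group them.

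Each T cell builds its receptor genes by joining 1 V and 1 J segment for the alpha chain, and 1 V, 1 D and 1 J segment for the beta chain, in front of a constant (C) segment. The V segment supplies a part of the surface that touches the peptide and the MHC molecule. Its usage differs between clones, and the counts of V segments in bulk RNA sum over all clones of a library. Some bacterial and viral superantigens bind receptors through the V beta part alone. BALB/c mice carry endogenous mammary tumour viruses whose superantigens, presented with the class II molecule I-E that C57BL/6 mice lack, are read by receptors with V beta 3, 5, 11 or 12. In the gene names used here these are Trbv26, Trbv12-1 and Trbv12-2, Trbv16, and Trbv15.

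The V segments on which the results turn are shown by sequence, from the transcripts of GENCODE M21 (GRCm38). The first set gives the last 90 bases of a segment, 5′ to 3′. Capitals mark the codon of the conserved cysteine at which the third complementarity-determining region begins, the stretch completed by joining. Trbv26 (chr6:41227505-41227993, plus strand) and Trbv23 (chr6:41216073-41216526, plus strand) had more RNA after allogeneic transplantation, while Trav15-1-dv6-1 (chr14:53559632-53560247, plus strand) had less. Trbv12-1 (chr6:41113550-41114067, plus strand) and Trbv12-2 (chr6:41118851-41119364, plus strand), which together form V beta 5, are set beside them.
Trbv26: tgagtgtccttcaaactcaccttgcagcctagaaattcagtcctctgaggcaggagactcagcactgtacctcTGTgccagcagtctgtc
Trbv23: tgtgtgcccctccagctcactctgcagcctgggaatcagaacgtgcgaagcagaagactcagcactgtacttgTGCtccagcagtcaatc
Trbv12-1: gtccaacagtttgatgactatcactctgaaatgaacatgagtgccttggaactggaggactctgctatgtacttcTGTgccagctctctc
Trbv12-2: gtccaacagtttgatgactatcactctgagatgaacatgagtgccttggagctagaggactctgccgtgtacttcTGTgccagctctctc
Trav15-1-dv6-1: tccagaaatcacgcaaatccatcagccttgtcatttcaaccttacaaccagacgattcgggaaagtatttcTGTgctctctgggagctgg
Over their last 280 aligned bases, Trbv26 was 75.7% identical to its closest relative among the 25 beta V members, Trbv24, and Trbv23 was 74.7% identical to Trbv26. No beta V member had another that was at least 97% identical. The alpha V segments differed in this: 47 of 76 had such a near copy. C57BL/6 mice carry duplicated blocks of alpha V genes, whose copies have names with d or n. Reads of such copies may have been split between rows, or left out, by the counting of the authors, so single alpha V values are uncertain. Trav12d-1 and Trav12n-1, for example, were 100% identical and both had 0 counts in every library. Of the equally identical Trav12n-3 and Trav12d-3, the first had up to 10 counts per library and the second had 0. The next 2 lines give 89 bases of Trav16 (chr14:53743104-53743705, plus strand) and Trav16n (chr14:53351028-53351621, plus strand), with the bases at which they differ in capitals. They differed at 4 of 280 bases, 3 of them inside this stretch.
Trav16: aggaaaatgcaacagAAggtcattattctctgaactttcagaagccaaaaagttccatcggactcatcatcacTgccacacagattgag
Trav16n: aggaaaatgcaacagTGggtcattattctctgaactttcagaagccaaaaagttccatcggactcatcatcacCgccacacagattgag

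Library totals ran from 45965645 to 89007094 counts, and 56746 to 124069 of these fell on the segments. Wapl (listed as Wapal) stood at 124 to 151 CPM in allogeneic KO, 156 to 169 in allogeneic WT, 127 to 139 in syngeneic KO and 170.1 to 211 in syngeneic WT libraries. The deleted exons are not given, so this level does not measure the loss. The defining T cell genes were present in every library, with 13 of 13 listed markers matched and a summed level of 4114 to 7659 CPM. Summed B cell markers reached 23.9 CPM. Myeloid markers summed to 27.0 to 96.3 CPM in allogeneic KO, 69.7 to 135 in allogeneic WT, 7.36 to 35.8 in syngeneic KO and 56.7 to 195 in syngeneic WT libraries, with no overlap between the syngeneic groups. Markers of red cell precursors summed to 4.01 to 7.97 CPM in allogeneic KO, 5.99 to 11.7 in allogeneic WT, 9.37 to 45.4 in syngeneic KO and 1490 to 3005 in syngeneic WT libraries. The part of myeloid and red cells in the segment values was not tested. Syngeneic KO replicate 1 stood apart, with the lowest scaling factor (0.773), and results that rest on it are given without it. Summed Y-linked genes stood at 31.4 to 138 CPM in KO and 0.733 to 1.75 CPM in WT libraries. Sex and genotype therefore cannot be told apart in KO against WT.

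Receptor RNA was abundant in all 4 groups, and its constant segments were not shown to change between any of them. Trac, the single alpha constant segment, stood at 551, 535 and 488 CPM in allogeneic KO, 572, 511 and 525 in allogeneic WT, 667, 477 and 461 in syngeneic KO and 553, 401 and 426 in syngeneic WT. The groups overlapped, and the highest value was that of syngeneic KO replicate 1. Trbc2, the more abundant of the 2 beta constant segments, stood at 391, 567 and 307 CPM in allogeneic KO, 382, 307 and 339 in allogeneic WT, 458, 279 and 275 in syngeneic KO and 317, 241 and 245 in syngeneic WT. Allogeneic KO replicate 2 was highest. Trbc1 stood at 92.8 to 187 CPM in allogeneic KO, 90.6 to 131 in allogeneic WT, 87.5 to 139.7 in syngeneic KO and 72.7 to 101 in syngeneic WT. It took 21.1 to 26.3% of the counts of the 2 beta constant segments, a near-constant share over all 12 libraries. None of the 3 constant segments was called in any comparison (edgeR quasi-likelihood test, adjusted p from 0.276 to 0.994 over the 4 pairwise comparisons). Without syngeneic KO replicate 1, Trbc2 was called higher in allogeneic than in syngeneic KO, by 0.65 on the log2 scale (adjusted p = 0.0430).

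Per kilobase of exon, Trac and Trbc2 were the most abundant segments and V segments came well below. Trac averaged 561 ± 34.8 CPM per kilobase in allogeneic KO, 573 ± 33.6 in allogeneic WT, 572 ± 122 in syngeneic KO and 492 ± 87.1 in syngeneic WT (SD, n = 3 each). Trbv13-2 (V beta 8.2) was the leading V segment of syngeneic libraries, at 93.0 ± 22.1 CPM per kilobase in KO and 67.2 ± 12.8 in WT. Trbv29 led in allogeneic KO at 107 ± 57.1, next to Trbv13-1 at 99.2 ± 27.8, which are within 1 SD of each other. Trbv13-1 led in allogeneic WT at 81.1 ± 4.74. Single alpha V segments were lower. The most abundant by group mean were Trav16 at 16.3 CPM per kilobase in allogeneic KO, Trav12-2 at 17.1 in allogeneic WT and at 12.2 in syngeneic WT, and Trav13-1 at 19.2 in syngeneic KO.

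Summed over all members, beta segments reached 652 to 1207 CPM in allogeneic libraries against 513 to 953 in syngeneic ones, and alpha segments 580.4 to 679.9 against 488 to 799. Both ranges overlapped. In bulk RNA, fewer cells of a type and less RNA per cell cannot be told apart. The 4 CD3 chain genes (Cd3d, Cd3e, Cd3g and Cd247), whose proteins form the signalling part of the receptor, summed to 1322 to 2196 CPM in allogeneic libraries and 944 to 1763 in syngeneic libraries. Cd3e was called higher in allogeneic than in syngeneic WT, by 0.57 ± 0.18 on the log2 scale (edgeR adjusted p = 0.0317), and 0 of the 4 were called in KO. Segment RNA relative to CD3 RNA separated the transplants: the ratio of summed CPM was 0.841 to 0.932 in the 6 allogeneic libraries and 0.994 to 1.13 in the 6 syngeneic libraries. The ratio of Cd8a to Cd4 RNA, which marks cytotoxic against helper T cells, also had no overlap, at 0.696 to 2.42 in allogeneic and 2.57 to 3.31 in syngeneic libraries, and its part in the segment values was not tested.

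**Figure D1:**
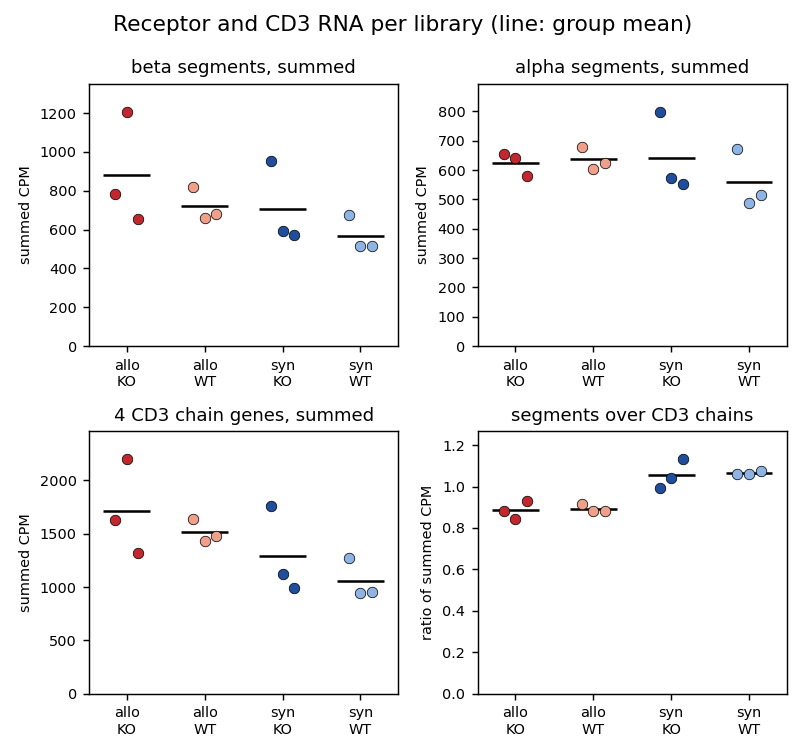
Summed CPM of beta segments, alpha segments and 4 CD3 chain genes, and the ratio of segment to CD3 RNA, in each of 3 libraries per group (points) with group means (lines), for allogeneic (allo) KO and WT and syngeneic (syn) KO and WT. The sums overlap between transplants, while the ratio is 0.841 to 0.932 in allogeneic and 0.994 to 1.13 in syngeneic libraries.

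The first pair of comparisons asked whether segment RNA levels differed between KO and WT donor T cells. Of the 157 members, 115 passed the filter on low counts (21 beta V, 65 alpha V, 8 beta J, 18 alpha J and the 3 constant segments). After syngeneic transplantation, 0 of 115 segments were called between KO and WT (adjusted p under 0.05 over all 18447 genes tested), where 3.37% of all genes were called. An unadjusted p under 0.05 was found for 4 segments, or 3.48%, against 14% of all genes, and DESeq2 called 0 (5.52% of all genes). After allogeneic transplantation 0 of 115 were called, where 0.0542% of all genes were. There 10 segments (8.7%) had an unadjusted p under 0.05, against 4.18% of all genes, and DESeq2 called 1 (0.417% of all genes). The test of whether the KO effect differed between transplants called 0 of 115 segments, against 0.477% of all genes. It gave 2 segments (1.74%) an unadjusted p under 0.05, against 6.2% of all genes, and DESeq2 called 0 (1.59% of all genes). The median log2 fold change, KO over WT, of the tested segments was 0.08 after syngeneic and 0.03 after allogeneic transplantation, beside 0.06 and 0.03 over all tested genes.

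The segments with the smallest p were Trbv13-2, Trav13n-1 and Trav7-6 after syngeneic transplantation, and Trav16, Trbv30 and Trbv13-2 after allogeneic transplantation. Trbv13-2 (chr6:41121396-41121832, plus strand) stood at 40.1, 25.6 and 29.2 CPM in syngeneic KO against 27.8, 20.8 and 19.9 in syngeneic WT, and at 30.9, 36.9 and 25.0 in allogeneic KO against 21.9, 21.8 and 19.7 in allogeneic WT. The syngeneic groups overlapped and the allogeneic groups did not. Between allogeneic KO and WT, 7.66% of all tested genes and 8.7% of the tested segments had no overlap. The log2 fold change, KO over WT, was 0.47 ± 0.19 (SE) after syngeneic transplantation (edgeR adjusted p = 0.285) and 0.55 ± 0.19 after allogeneic transplantation (adjusted p = 0.963). In a fit of the 6 syngeneic libraries with a replicate block, Trbv13-2 was called (0.42, adjusted p = 0.0486), 1 of 106 tested segments where 7.29% of all genes were called. This is the only segment call that any fit gave for KO against WT after syngeneic transplantation, among those tried. Its share of beta V counts was 8.23 to 11.2% in allogeneic KO, 7.21 to 8.70% in allogeneic WT, 11.4 to 14.7% in syngeneic KO and 10.3 to 10.9% in syngeneic WT. The log2 fold change, KO over WT, was 1.08 ± 0.45 for Trav13n-1 (edgeR adjusted p = 0.305) and 0.73 ± 0.32 for Trav7-6 (adjusted p = 0.330) after syngeneic transplantation, and 1.39 ± 0.45 for Trbv30 (adjusted p = 0.961) after allogeneic transplantation.

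Trav16 had the smallest p of all segments for KO against WT after allogeneic transplantation. It stood at 5.40, 6.66 and 8.54 CPM in allogeneic KO against 3.97, 3.42 and 3.73 in allogeneic WT, with no overlap, and at 2.97, 2.73 and 2.62 in syngeneic KO against 3.52, 2.41 and 2.33 in syngeneic WT. Between allogeneic KO and WT, 7.66% of all tested genes had no overlap. The allogeneic KO libraries were the 3 highest of all 12 for Trav16. The log2 fold change, KO over WT, after allogeneic transplantation was 0.89 ± 0.22. edgeR did not call it (adjusted p = 0.428, unadjusted p = 0.00155), and DESeq2 did (0.89, adjusted p = 0.0169). The difference of this effect from that after syngeneic transplantation was 0.88 ± 0.32 (edgeR adjusted p = 0.488).

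The second pair of comparisons asked how segment RNA levels differed between donor T cells from allogeneic and from syngeneic recipients. The 2 kinds of transplant also differed in radiation dose and T cell dose, as stated above. Among WT libraries 4 of 115 segments (3.48%) were called, 2 higher and 2 lower after allogeneic transplantation, where 32.3% of all genes were called. Among KO libraries 13 of 115 (11.3%) were called, 6 higher and 7 lower, where 24.4% of all genes were called. The median log2 fold change of the tested segments was 0.07 in WT and −0.03 in KO, beside −0.03 and −0.02 over all tested genes. Both shares were below the share of all genes. Higher and lower calls made up 16.4% and 15.9% of all genes in WT and 13.2% and 11.2% in KO. DESeq2 called 10 segments in WT and 14 in KO, where it called 36.7% and 29.3% of all genes. Leaving out 1 library at a time gave 4 to 5 called segments in WT and 3 to 15 in KO. In KO the count was 8 without allogeneic KO replicate 1, 7 without allogeneic KO replicate 2, 3 without syngeneic KO replicate 2, 8 without syngeneic KO replicate 3, and 15 (13 higher) without syngeneic KO replicate 1. The shares of all genes called in these refits are not given, so their counts do not show a change particular to the segments. The WT and KO comparisons share no library. Trbv26, Trbv23 and Trav15-1-dv6-1 were called in both, with the same direction, which is 75% of the WT calls and 23.1% of the KO calls. All 13 segments called in KO had the same sign in WT. Across the 115 segments, which share libraries and depth within each genotype, the WT and KO log2 fold changes had a Pearson r of 0.56, with 0.80 across the 21 beta V and 0.59 across the 65 alpha V segments.

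**Figure D2:**
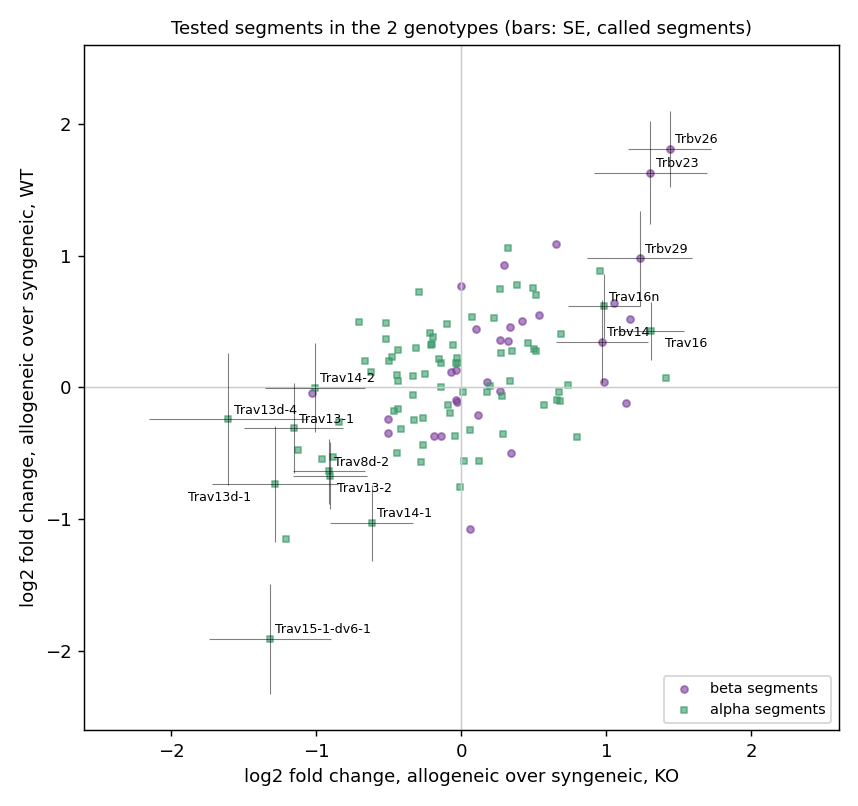
Log2 fold change, allogeneic over syngeneic, of the 115 tested segments in KO (horizontal axis) and WT (vertical axis), with circles for beta and squares for alpha segments. Segments called in either genotype are named with their standard errors, and Trbv26 and Trbv23 lie at the upper right and Trav15-1-dv6-1 at the lower left.

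Trbv26, the gene of V beta 3, had the smallest p of all segments in WT and the second smallest, after Trav16, in KO. It stood at 9.50, 13.7 and 6.38 CPM in allogeneic KO and 13.4, 12.2 and 11.02 in allogeneic WT, against 4.72, 2.94 and 3.27 in syngeneic KO and 4.14, 3.82 and 2.45 in syngeneic WT. Every allogeneic library lay above every syngeneic library. The log2 fold change, allogeneic over syngeneic, was 1.81 ± 0.29 in WT (edgeR adjusted p = 0.000418) and 1.44 ± 0.29 in KO (adjusted p = 0.00279). The call held in both genotypes under each of the 7 alternatives that keep all libraries and without each of 6 libraries in turn, with log2 fold changes from 1.50 to 1.96 in WT and from 1.07 to 1.71 in KO. The test of the difference between genotypes did not call Trbv26 (−0.37 ± 0.40 on the log2 scale, the allogeneic minus syngeneic effect in KO minus that in WT). The values rest on 144 to 1197 counts per library.

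Trbv23, a beta V segment of low abundance that lies near Trbv26 in the locus, moved the same way. It stood at 2.72, 2.05 and 0.940 CPM in allogeneic KO and 2.10, 2.41 and 1.93 in allogeneic WT, against 1.07, 0.430 and 0.813 in syngeneic KO and 0.716, 0.685 and 0.681 in syngeneic WT. The WT groups did not overlap, which held for 55.7% of all tested genes and 20% of the tested segments. Allogeneic KO replicate 3 lay among the syngeneic KO libraries. Its log2 fold change was 1.63 ± 0.39 in WT (edgeR adjusted p = 0.00680) and 1.30 ± 0.39 in KO (adjusted p = 0.0282). The KO call was lost without allogeneic KO replicate 1 or 2 or syngeneic KO replicate 2 or 3 (adjusted p from 0.0592 to 0.119), and under 3 of 7 alternatives that keep all libraries (up to 0.144). The WT call was lost when libraries were scaled to the beta V total (adjusted p = 0.0527). Trbv24, which lies between the 2 segments and is the closest relative of Trbv26, is annotated as a pseudogene and was not called.

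In KO libraries, Trbv29 (V beta 7; chr6:41271394-41271881, plus strand) and Trbv14 (V beta 13; chr6:41135145-41135616, plus strand) were also called higher after allogeneic transplantation. Trbv29 stood at 19.2, 59.1 and 34.7 CPM in allogeneic KO and 28.0, 18.8 and 27.7 in allogeneic WT, against 22.7, 12.4 and 13.2 in syngeneic KO and 15.2, 11.1 and 11.5 in syngeneic WT. Allogeneic KO replicate 2 was highest and syngeneic KO replicate 1 overlapped the allogeneic values. Allogeneic over syngeneic, the log2 fold change was 1.23 ± 0.36 in KO (edgeR adjusted p = 0.0280) and 0.98 ± 0.36 in WT (adjusted p = 0.0569). Trbv14 stood at 18.5, 37.1 and 25.0 CPM in allogeneic KO and 19.7, 13.2 and 12.5 in allogeneic WT, against 20.0, 11.5 and 9.74 in syngeneic KO and 15.1, 9.41 and 11.1 in syngeneic WT. Its log2 fold change was 0.97 ± 0.32 in KO (adjusted p = 0.0419) and 0.35 in WT, where it was not called. Both calls were lost without allogeneic KO replicate 2 or 3 or syngeneic KO replicate 2 or 3 (adjusted p from 0.0517 to 0.144). Of 7 alternatives that keep all libraries, 3 lost the Trbv29 call and 2 the Trbv14 call (adjusted p up to 0.0822 and 0.0817).

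The 5 segments read by the superantigens of BALB/c viruses did not move together. All 5 were tested, and 1, Trbv26, was called in each genotype, higher in both, which is 20% of them. Of all genes, 32.3% were called in WT and 24.4% in KO, and 16.4% and 13.2% were called higher. The median log2 fold change of the 5 was 0.44 in WT and 0.10 in KO, beside −0.03 and −0.02 over all tested genes. Of the 16 other beta V segments tested from the list, 1 was called higher in WT and 3 in KO, with medians of 0.08 and 0.22. None of the 16 was called lower in either genotype, and the shares of all genes are those given for the 5 segments. Trbv16, the gene of V beta 11, stood at 25.9, 40.5 and 20.8 CPM in allogeneic KO and 30.6, 21.1 and 22.6 in allogeneic WT, against 32.1, 17.8 and 15.5 in syngeneic KO and 20.2, 16.0 and 16.1 in syngeneic WT. It was not called, with 0.51 ± 0.29 in WT (edgeR adjusted p = 0.200) and 0.41 ± 0.29 in KO (adjusted p = 0.321). In KO it was called without syngeneic KO replicate 1, its highest syngeneic value (0.84, adjusted p = 0.0266). Trbv15, the gene of V beta 12, stood at 8.96 to 24.0 CPM in allogeneic KO, 13.6 to 23.1 in allogeneic WT, 8.81 to 20.9 in syngeneic KO and 11.2 to 16.5 in syngeneic WT. It was not called in either genotype.

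**Figure D3:**
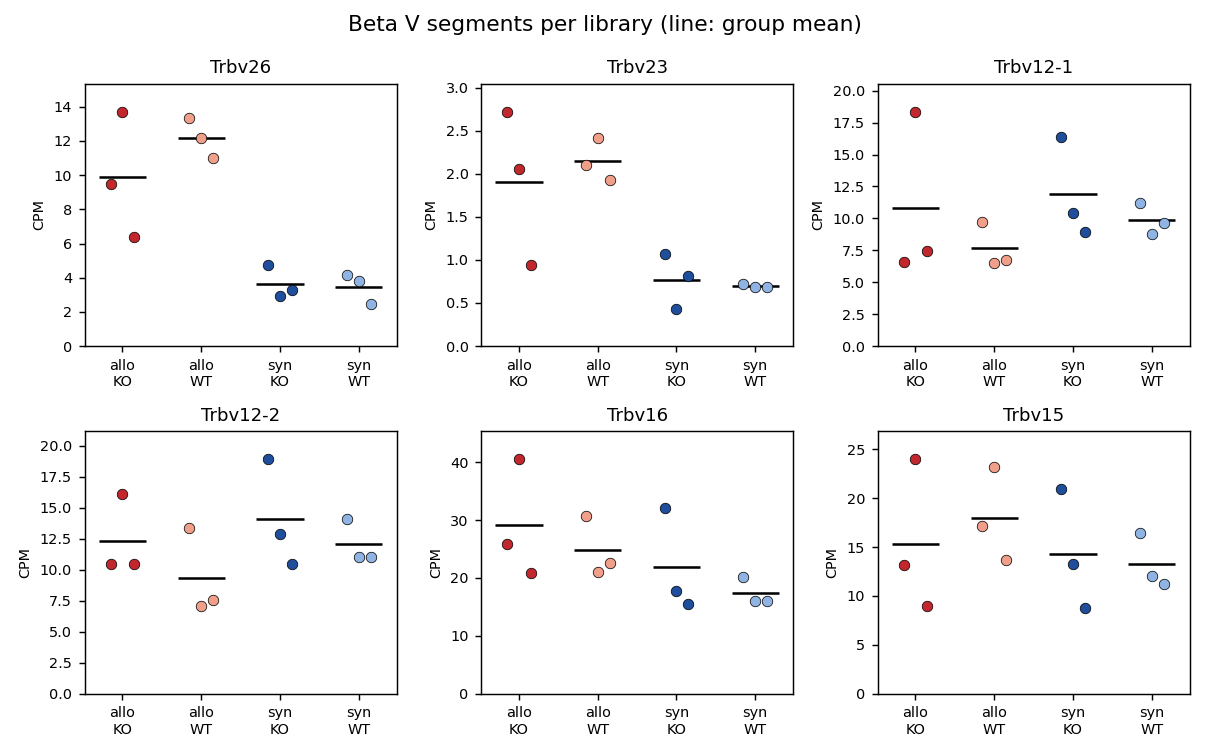
CPM of Trbv26, Trbv23 and the other superantigen-linked segments Trbv12-1, Trbv12-2, Trbv16 and Trbv15 in 3 libraries per group (points) with group means (lines), allogeneic (allo) and syngeneic (syn), KO and WT. Trbv26 lies between 6.38 and 13.7 CPM in the 6 allogeneic libraries and between 2.45 and 4.72 CPM in the 6 syngeneic ones, while the other 4 list members overlap between transplants in KO.

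As shares of all beta V counts in a library, the V beta 3 and V beta 5 segments went in opposite directions. Trbv26 took 2.55 to 3.45% of beta V counts in allogeneic KO and 4.40 to 4.85% in allogeneic WT, against 1.32 to 1.64% in syngeneic KO and 1.27 to 1.96% in syngeneic WT. Trbv12-2 took 3.58 to 4.18% in allogeneic KO and 2.82 to 4.40% in allogeneic WT, against 5.27 to 5.80% in syngeneic KO and 5.51 to 5.72% in syngeneic WT. Trbv12-1 took 2.39 to 4.09% in allogeneic KO and 2.59 to 3.21% in allogeneic WT, against 4.48 to 4.71% in syngeneic KO and 4.38 to 5.00% in syngeneic WT. For each of the 3 the 6 allogeneic libraries lay on one side of the 6 syngeneic ones. Trbv29 and Trbv31, outside the superantigen list, separated as well, so that 5 of 21 beta V segments (23.8%) had no overlap in share. Relative to the beta V total, 15.4% of all tested genes had none. Exact 95% binomial intervals of single libraries spanned at most 0.673, 0.885 and 0.820 percentage points for Trbv26, Trbv12-2 and Trbv12-1, and cover counting error only.

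With the beta V total as library size, an alternative added after the data were seen, edgeR called 4 of 21 beta V segments in WT, where 16.7% of all genes were called, and 4 of 21 in KO, where 12.5% were. This scaling shifted the median of all genes to −0.36 in WT and −0.35 in KO. Trbv26 was higher, in WT by 1.50 ± 0.23 (adjusted p = 0.000917) and in KO by 1.07 ± 0.23 (adjusted p = 0.00935). The KO call was lost without syngeneic KO replicate 2 (adjusted p = 0.0504). Trbv12-2 was lower in WT by −0.72 ± 0.20 (adjusted p = 0.0245) and Trbv12-1 by −0.71 ± 0.22 (adjusted p = 0.0411). In KO they were at −0.51 ± 0.19 and −0.55 ± 0.21 and were not called (adjusted p of 0.111 and 0.118), except that Trbv12-1 was called without allogeneic KO replicate 2 (−0.78, adjusted p = 0.0327). The Trbv12-1 call in WT was lost without any 1 of the 6 libraries (adjusted p from 0.0627 to 0.145). The Trbv12-2 call was lost without allogeneic WT replicate 2 or 3 or syngeneic WT replicate 2 or 3 (adjusted p from 0.0811 to 0.120). On the scale of whole libraries neither was called, at −0.37 ± 0.36 for Trbv12-1 and −0.37 ± 0.28 for Trbv12-2 in WT. The remaining calls on this scale were Trbv17 lower in WT (−0.85 ± 0.27), and in KO Trbv29 and Trbv14 higher and Trbv31 lower (−0.83 ± 0.24). With the alpha V total as library size, 2 of 65 alpha V segments were called in WT (24.1% of all genes), Trav14-1 and Trav15-1-dv6-1, both lower. In KO 3 of 65 were called (20% of all genes), Trav16 and Trav16n higher and Trav13-1 lower.

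**Figure D4:**
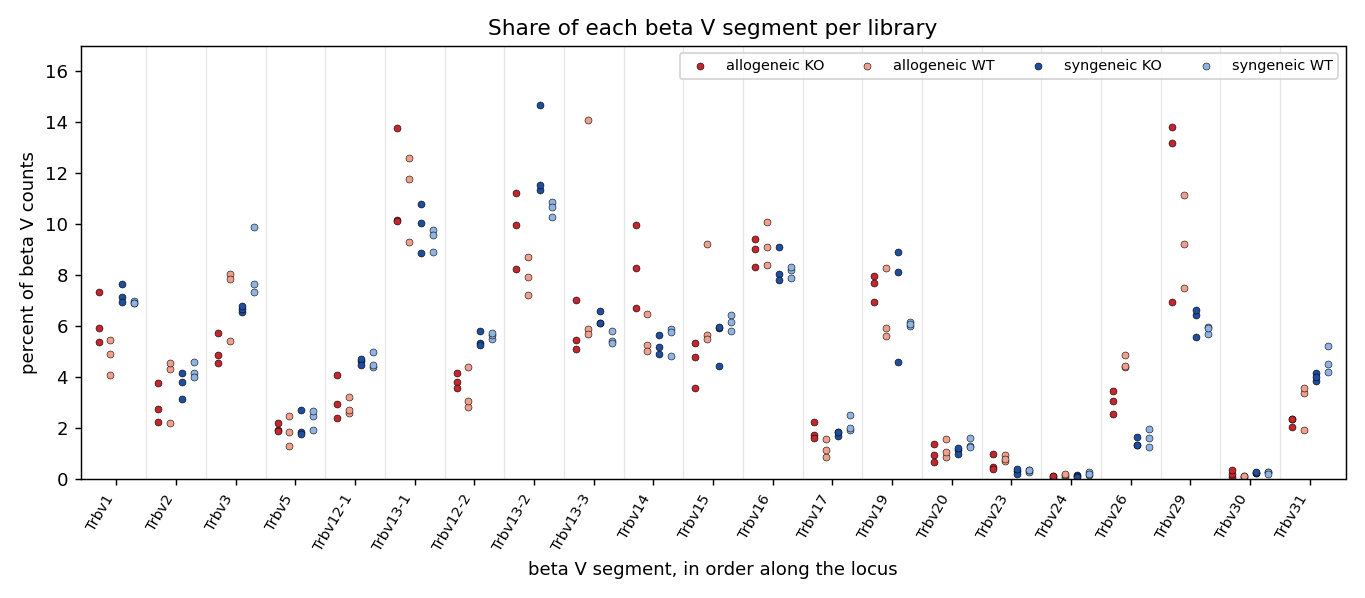
Percent of the beta V counts of a library that fell on each of the 21 tested beta V segments, in their order along the locus, with 3 points per group. Trbv26 and Trbv29 lie higher and Trbv12-1, Trbv12-2 and Trbv31 lower in the allogeneic libraries than in the syngeneic ones, and 1 allogeneic WT library stands at 14.1% for Trbv13-3.

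Trbv29 took 6.97, 13.2 and 13.8% of beta V counts in allogeneic KO and 9.24, 7.51 and 11.2% in allogeneic WT, against 5.58 to 6.62% in syngeneic KO and 5.69 to 5.95% in syngeneic WT. The allogeneic shares varied by more than those of the syngeneic libraries, which lay close together. Trbv31 (V beta 14) took 2.05 to 2.38% in allogeneic KO and 1.92 to 3.57% in allogeneic WT, against 3.84 to 4.17% in syngeneic KO and 4.22 to 5.21% in syngeneic WT. Single libraries also stood out. Trbv13-3 (V beta 8.1) took 14.1% in allogeneic WT replicate 2, against 5.89 and 5.68% in the other allogeneic WT libraries, and its level there was 35.4 CPM against 17.9 and 14.1. In allogeneic KO replicate 2, whose summed beta RNA was 1.88 times its alpha RNA against at most 1.20 in every other library, Trbv12-1 reached 18.3 CPM against 6.59 and 7.41 in the other allogeneic KO libraries. Evenness of usage (Shannon entropy over its maximum) over the 25 beta V members was 0.849 to 0.853 in allogeneic KO, 0.840 to 0.867 in allogeneic WT, 0.855 to 0.863 in syngeneic KO and 0.868 to 0.879 in syngeneic WT. Over the 76 alpha V members it was 0.872 to 0.901 in allogeneic and 0.900 to 0.910 in syngeneic libraries.

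Among alpha V segments, Trav15-1-dv6-1 had the largest called fall after allogeneic transplantation in WT. Its combined name marks a V segment that can join to either an alpha or a delta chain. It is below the level at which the naming rule takes a segment, and was chosen after its values were seen. It stood at 0.164, 0.317 and 0.304 CPM in allogeneic KO and 0.364, 0.142 and 0.169 in allogeneic WT, against 0.904, 0.584 and 0.516 in syngeneic KO and 0.794, 1.01 and 0.698 in syngeneic WT. Every allogeneic library lay below every syngeneic library, on 7 to 21 counts against 26 to 59. The log2 fold change was −1.91 ± 0.42 in WT (edgeR adjusted p = 0.00395), which held without each of 6 libraries in turn, and −1.32 ± 0.42 in KO (adjusted p = 0.0360). The KO call was lost without allogeneic KO replicate 1 or 2 or syngeneic KO replicate 1 or 2 (adjusted p from 0.0606 to 0.116). The 3 Trav15 members summed changed by −1.32 ± 0.32 in WT (adjusted p = 0.00688) and stood at −0.67 ± 0.31 in KO (adjusted p = 0.142). Trdc, the constant segment of the delta chain, went the same way. It stood at 1.41 to 4.30 CPM in allogeneic KO and 1.99 to 3.33 in allogeneic WT, against 5.99 to 6.21 in syngeneic KO and 11.2 to 14.2 in syngeneic WT, and was called lower both in WT, by −2.28 ± 0.32 (adjusted p = 0.000163), and in KO, by −1.09 ± 0.31 (adjusted p = 0.0230). The 2 matched genes of the 5 listed for gamma delta T cells were Trdc itself and Sox13. They summed to 1.57 to 4.44 CPM in allogeneic and 6.03 to 14.3 CPM in syngeneic libraries, a sum that mostly repeats Trdc. Sox13 alone overlapped between transplants, at 0.0167 to 0.191 CPM in allogeneic and 0.0402 to 0.853 CPM in syngeneic libraries. The part of gamma delta T cells in the values of Trav15-1-dv6-1 was not tested.

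Trav16 and its near copy Trav16n rose in allogeneic KO. The values of Trav16 are given above: its log2 fold change, allogeneic over syngeneic, was 1.31 ± 0.23 in KO (edgeR adjusted p = 0.00102), which held under each of the 7 alternatives that keep all libraries and without each of 6 libraries in turn. In WT it was 0.43 ± 0.22 (adjusted p = 0.160). Trav16n stood at 4.76, 7.86 and 6.31 CPM in allogeneic KO and 4.23, 4.82 and 4.17 in allogeneic WT, against 4.14, 2.65 and 2.80 in syngeneic KO and 3.53, 2.65 and 2.44 in syngeneic WT. Every allogeneic library lay above every syngeneic one, by a narrow margin. Its log2 fold change was 0.98 ± 0.25 in KO (adjusted p = 0.0111, and 0.0574 without syngeneic KO replicate 2) and 0.62 ± 0.25 in WT (adjusted p = 0.0714, and 0.0459 without syngeneic WT replicate 1). A sum over copies does not depend on how reads were split among them. It would still miss any reads left out because they matched several copies. The 3 Trav16 members together stood at 10.3, 15.2 and 15.5 CPM in allogeneic KO and 8.64 to 9.02 in allogeneic WT, against 5.95 to 7.56 in syngeneic KO and 5.22 to 7.68 in syngeneic WT. In a refit with V segments summed by subgroup, also added after the data were seen, Trav16 was 1.07 ± 0.20 higher in KO (adjusted p = 0.00158) and at 0.50 ± 0.19 in WT (adjusted p = 0.0652). That refit called 6 of 37 subgroups in KO, where 24.4% of all genes were called, and 3 of 37 in WT, where 32.4% were.

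Of the 9 Trav13 members 8 were tested, and 4 were called lower after allogeneic transplantation in KO and 0 in WT. Of all genes, 11.2% were called lower in KO and 15.9% in WT. Trav13n-3 had the opposite sign, at 0.95 ± 0.62 in KO and 0.89 ± 0.61 in WT, and Trav13n-4 stood at −0.01 ± 0.37 in KO. None of these values was called. Trav13-1 (chr14:53545014-53545525, plus strand) stood at 3.82, 2.57 and 2.20 CPM in allogeneic KO and 3.92, 2.38 and 2.72 in allogeneic WT, against 9.59, 5.78 and 3.73 in syngeneic KO and 4.57, 3.17 and 3.41 in syngeneic WT. Syngeneic KO replicate 1 was highest, and the KO groups overlapped. In KO the log2 fold change was −1.16 ± 0.34 (edgeR adjusted p = 0.0262), and −0.70 without syngeneic KO replicate 1 (adjusted p = 0.105). That call was also lost without allogeneic KO replicate 2 or 3 or syngeneic KO replicate 2. Trav13-2 (chr14:53634829-53635399, plus strand) stood at 1.13, 1.38 and 1.61 CPM in allogeneic KO and 1.41, 1.54 and 1.72 in allogeneic WT, against 3.30, 2.49 and 1.96 in syngeneic KO and 2.93, 2.16 and 2.33 in syngeneic WT. No allogeneic library reached a syngeneic one. Its log2 fold change was −0.91 ± 0.26 in KO (adjusted p = 0.0205, lost without allogeneic KO or syngeneic KO replicate 1 or 2, at 0.0540 to 0.0841) and −0.67 ± 0.25 in WT (adjusted p = 0.0602). Trav13d-1 and Trav13d-4, both under 1 CPM and named after their values were seen, were called lower in KO at adjusted p of 0.0482 and 0.0493. Each of these calls was lost without 5 of the 6 libraries in turn and under 5 of 7 alternatives that keep all libraries (adjusted p up to 0.168). The 9 Trav13 members together stood at 6.28 to 7.42 CPM in allogeneic KO and 6.11 to 7.60 in allogeneic WT, against 9.32 to 17.6 in syngeneic KO and 8.44 to 11.6 in syngeneic WT, with no overlap between transplants. The summed change was −0.91 ± 0.22 in KO (adjusted p = 0.00841) and −0.47 ± 0.22 in WT (adjusted p = 0.116).

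**Figure D5:**
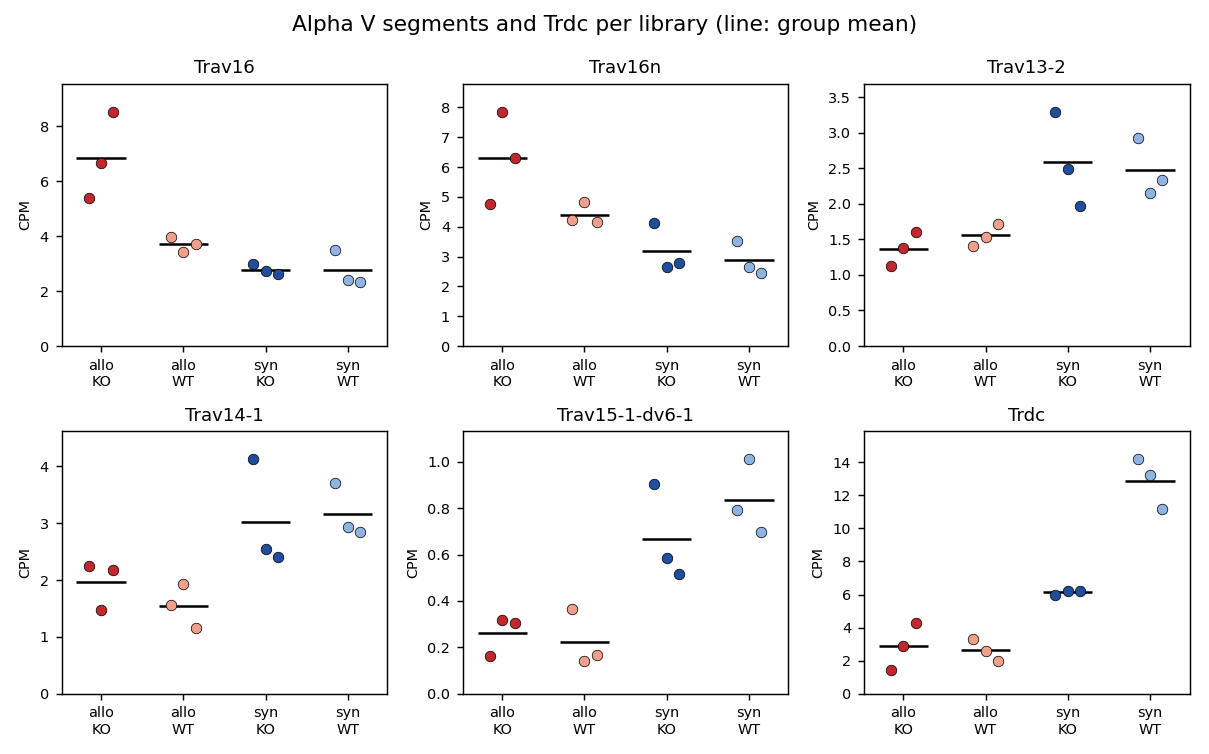
CPM of Trav16, Trav16n, Trav13-2, Trav14-1 and Trav15-1-dv6-1, and of the delta constant segment Trdc for comparison, in 3 libraries per group (points) with group means (lines). Trav16n is higher, and Trav13-2, Trav14-1 and Trav15-1-dv6-1 are lower, in all 6 allogeneic (allo) than in all 6 syngeneic (syn) libraries, and Trav16 is highest in the 3 allogeneic KO libraries.

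The other called alpha V segments were lower too. Trav14-1 (chr14:53554022-53554558, plus strand) stood at 2.25, 1.47 and 2.18 CPM in allogeneic KO and 1.56, 1.92 and 1.15 in allogeneic WT, against 4.12, 2.54 and 2.40 in syngeneic KO and 3.70, 2.93 and 2.84 in syngeneic WT. All allogeneic libraries were below all syngeneic ones. It was called in WT (−1.03 ± 0.29, edgeR adjusted p = 0.0162), not without allogeneic WT replicate 3 or syngeneic WT replicate 1 (adjusted p of 0.0696 and 0.0590), and was at −0.62 in KO (adjusted p = 0.138). In KO, Trav14-2 (chr14:53640701-53641225, plus strand) was called at −1.01 ± 0.35 (adjusted p = 0.0497) and Trav8d-2 (chr14:53042428-53042891, plus strand) at −0.91 ± 0.25 (adjusted p = 0.0169). The Trav14-2 call was lost without any 1 of the 6 libraries, and that of Trav8d-2 without syngeneic KO replicate 2 or 3. Of the 13 KO calls, those of Trbv26 and Trav16 held whichever of the 6 libraries was left out, and each of the other 11 was lost without at least 1 of them and under 1 to 5 of 7 alternatives that keep all libraries. In all, 5 of 115 segments (4.35%) had no overlap between the 6 allogeneic and the 6 syngeneic libraries, where 22.8% of all tested genes had none. Trbv26 and Trav16n were above, and Trav13-2, Trav14-1 and Trav15-1-dv6-1 below.

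J segments gave few counts. The alpha J members summed to 5.12 to 6.32 CPM in allogeneic and 4.64 to 7.60 CPM in syngeneic libraries, and the beta J members to 1.42 to 4.22 and 1.35 to 3.22 CPM. None of the 18 alpha J and 8 beta J segments tested was called in any comparison by edgeR. An unadjusted p under 0.05 was found for 1 of 8 beta J segments in allogeneic against syngeneic KO, against 37% of all genes. It was found for 2 of 18 alpha J segments in KO against WT after allogeneic transplantation, against 4.18% of all genes. None had it in the other 3 comparisons. Of all genes, 14% had it in KO against WT after syngeneic transplantation and 6.2% in the difference between transplants. In allogeneic against syngeneic WT 43.2% did. Most segments of invariant receptors had few counts. Traj18, used by natural killer T cells, reached 0.102 CPM and Traj33, used by mucosal-associated invariant T cells, reached 0.156 CPM, and neither passed the filter. Trav11 and Trav11d, V partners of Traj18, had 1 and 0 counts over all 12 libraries. They are 99.3% identical to each other, and their copy Trav11n, 97.9% identical to Trav11 and outside the naming rule, had 1 to 28 counts per library. How reads of these copies were assigned is not given in the sources used here, so the zeros do not measure a lack of expression. Trav1, the V partner of Traj33, passed the filter with 39 to 105 counts per library. It stood at 0.781 to 2.46 CPM in allogeneic KO, 0.611 to 1.32 in allogeneic WT, 1.01 to 1.33 in syngeneic KO and 0.667 to 1.20 in syngeneic WT, and was not called. Klrb1c encodes NK1.1, a surface marker of natural killer T and natural killer cells. It was higher in allogeneic libraries (19.7 to 55.6 against 4.45 to 6.95 CPM). The 5 listed natural killer cell markers, Klrb1c among them, did not move together. Their sum was lower in allogeneic libraries (83.9 to 138 against 145 to 187 CPM), and most of it was Eomes (50.6 to 86.5 against 130 to 175 CPM). Ncr1 was higher (1.41 to 5.79 against 0.0804 to 0.753 CPM). Klra8 was lower (at most 0.0145 against 0.119 to 0.667 CPM), and Klre1 overlapped between transplants.

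Genes of the recombination machinery, which cut and join the segments in immature lymphocytes, were read beside them. Dntt, which adds bases at the junctions, stood at 0.0579 to 0.117 CPM in allogeneic KO and 0.0814 to 0.118 in allogeneic WT, against 4.94 to 7.03 in syngeneic KO and 4.00 to 4.91 in syngeneic WT. Rag1, a subunit of the cutting enzyme, reached 0.0145 CPM in allogeneic libraries and stood at 0.0201 to 1.15 CPM in syngeneic ones. Of the 4 listed genes 3 were tested, and 2, Dntt and Rag1, were called lower after allogeneic transplantation in each genotype, with edgeR adjusted p of 8.65e-08 and 0.00796 in WT. Ptcra, the partner of the beta chain before the alpha chain is made, was at 0.0868 to 0.397 CPM in all libraries and was not called. Their part in the segment values was not tested.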

How the data were processed

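Members, gene lists and comparisons were chosen with earlier results of these data known. The authors deposited expected counts per gene (94.5 to 95.0% of the values of a library, zeros included, were whole), which were rounded. Per the submitters' processing notes, TopHat2 2.0.13, Bowtie2 2.2.1, Cufflinks and Cuffdiff 2.2.1 were used with GRCm38. The program that counted, its annotation and its use of strand are not given in the sources used here. Libraries were made from 100 ng of total RNA after ribosomal RNA removal, per the labels. 12 columns were matched to labelled samples by name, 6 others were not used, and the naive samples were not analysed here. Gene positions and sequences came from GENCODE M21, which held all 242 members.

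edgeR 4.0.16 (R 4.3.3) fitted 1 mean per group to all 12 libraries, with TMM scaling, filterByExpr (minimum count 10) and robust quasi-likelihood F tests, two-sided, adjusted by Benjamini-Hochberg over 18447 genes. A call is an adjusted p under 0.05. CPM use TMM-adjusted totals. DESeq2 1.42.0 was an alternative. The fit was tested on simulated data. Figures and descriptions used Python 3.11.15, and identities Biopython 1.88. Named segments were the constant and D segments, a list of beta V segments, those of invariant receptors, up to 8 called segments per direction that averaged 1 CPM or more, and, where none was called, the 3 with the smallest p. Equal replicate numbers were taken to pair syngeneic KO and WT libraries, whose residuals correlated at 0.545, 0.170 and 0.335. KO replicate 3 and WT replicate 2, which share no number, correlated at 0.363. The labels do not state such a pairing.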

Additional observations from a re-analysis of the deposited data

How the results depend on the processing

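Counts of called segments depended on the settings. For KO against WT, the count of 0 became 1 after syngeneic transplantation with the replicate block within the 6 syngeneic libraries, and 1 after allogeneic transplantation with DESeq2. With a replicate block over all 12 libraries the counts were 0 and 0 for KO against WT, 5 and 10 for allogeneic against syngeneic WT and KO, and 0 for the difference between transplants. The count of 4 in WT became 10 with DESeq2 (6 higher), 10 when scaled to receptor counts (2 higher), 11 with these 2 groups fitted alone (6 higher) and 6 when scaled to the V total of the locus (1 higher), and was 4 to 5 with 1 library left out. The count of 13 in KO became 8 without the filter, 7 when scaled to the V total of the locus (5 higher), 2 with these 2 groups fitted alone (2 higher) and 6 with V subgroups summed (5 higher), and was 3 to 15 with 1 library left out. The shares of all genes called are given above for DESeq2, the V totals, the subgroups and the block within the syngeneic libraries. For the other settings they are not given, so those counts do not show a change particular to the segments. The cause was not tested. With V segments of at least 1 CPM alone, mean evenness in allogeneic KO, allogeneic WT, syngeneic KO and syngeneic WT became 0.924, 0.931, 0.934 and 0.947 for beta and 0.949, 0.960, 0.966 and 0.973 for alpha, fewer segments of low level being left. Of 402 values for named segments with all libraries kept, 355 kept direction and call, 32 lost and 15 gained a call, and 0 changed sign as a call. Of 360 with 1 library left out, 312 kept both, 45 lost and 3 gained a call. Alternatives by locus V total, by subgroup, and the block fitted to syngeneic libraries alone, were chosen after seeing the data. Low counts limit J and invariant receptor segments.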
